A study of Homo sapiens with 8 samples.

Results

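The response of parental MDA-MB-231 cells to 48 h of arginine starvation was read from 4 of the 8 RNA-seq libraries of the series, by setting the 2 starved libraries against the 2 control libraries. Of the 23393 genes in the count table, the 15262 that passed an expression filter were tested, and all of them are covered here, with most room given to functions other than oxidative phosphorylation, glycolysis and the unfolded protein response. The line, established from a human breast tumour, makes little ASS1, which cells need to form arginine out of citrulline. Control cells grew in high-glucose DMEM with serum and antibiotics. For the starved cells, the labels give arginine deiminase (ADI), an enzyme that degrades arginine, at 0.3 µg/mL for 48 h in full medium, whereas the study's text describes arginine-starved medium. The other 4 libraries are control and starved ρ0 cells, an MDA-MB-231 line without mitochondrial DNA for which the labels name 1 clone. They entered the fit and are compared with the parental cells only in the last section. The labels number 2 replicates per group and do not say whether they were separate cultures, so the p-values measure the spread between libraries, which may be technical. In the main fit that spread was estimated over all 8 libraries, the ρ0 ones included.

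Arginine is taken up by cationic amino acid transporters and is used for protein, polyamines, creatine and nitric oxide. Cells that lack an amino acid sense uncharged tRNA through the kinase GCN2, which slows translation and raises the transcription factor ATF4. ATF4 and its partners are known to act on amino acid transporters, aminoacyl-tRNA synthetases and the enzymes of serine and cysteine synthesis, often through a composite element that binds ATF4 with a C/EBP factor. The kinase mTORC1 also senses arginine, and promotes ribosome production and sterol synthesis when amino acids are ample.

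The parental libraries held between 26123330 and 30986041 counts. The biological coefficient of variation was 5.18% between the control libraries and 2.25% between the starved ones. Between the ρ0 control libraries it was 25.04%, and their spread also enters the p-values of the parental comparison in the main fit. The label was checked against marker genes. Of 12 markers of basal mesenchymal breast cancer lines, all were tested, and their summed level was 7376 and 7385 CPM (counts scaled to a common library size) in control cells and 4239 and 4170 CPM in starved cells. SPARC, a matrix protein on that list, was near absent even in control cells, at 2.19 and 2.54 CPM. Of 15 luminal markers, ESR1 and PGR, the oestrogen and progesterone receptors, did not pass the filter. Of 15 leukocyte markers, 5 were tested, with a summed level of at most 6.06 CPM in any parental library, and CD3E, a T cell receptor subunit, did not pass the filter. Of 12 fibroblast and endothelial markers, 9 were tested, with a summed level between 28.96 and 35.64 CPM. The summed level of the luminal list was 610 and 629 CPM in control and 841 and 814 in starved cells, and XBP1, which also belongs to the unfolded protein response, alone went from 79.8 and 83.9 to 491 and 458 CPM. ASS1 had 0.300 and 0.104 CPM without starvation and 0.0396 and 0.0709 CPM with it, a level at which no change was detectable.

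The response to starvation was broad. DEGs are genes with a Benjamini-Hochberg adjusted p under 0.05 in edgeR's quasi-likelihood test that also changed by more than 1 on the log2 scale. Of all tested genes 12.7% were up-regulated and 22.1% were down-regulated, which are the shares against which every count of list members is set below. At any fold change, 30.4% of the tested genes were significantly higher and 35.5% were significantly lower. The 1940 up-regulated DEGs took 9.21% and 9.03% of all counts in the control libraries and 22.3% in each starved library. The 3380 down-regulated DEGs took 15.8% and 15.9% of the counts in control cells, and 4.55% and 4.51% in starved cells. The down-regulated DEGs were mostly less abundant genes, with a median of 7.40 CPM over the 4 parental libraries, against 32.4 CPM for the up-regulated DEGs and 24.8 CPM for all tested genes. These means include the starved libraries, so the order is partly built in by the response. In 505 tested genes both starved libraries held at most 3 counts while at least 1 control library held more, and the converse was true of 105 genes. In a bulk culture, fewer cells of a kind and less RNA per cell cannot be told apart.

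**Figure D1:**
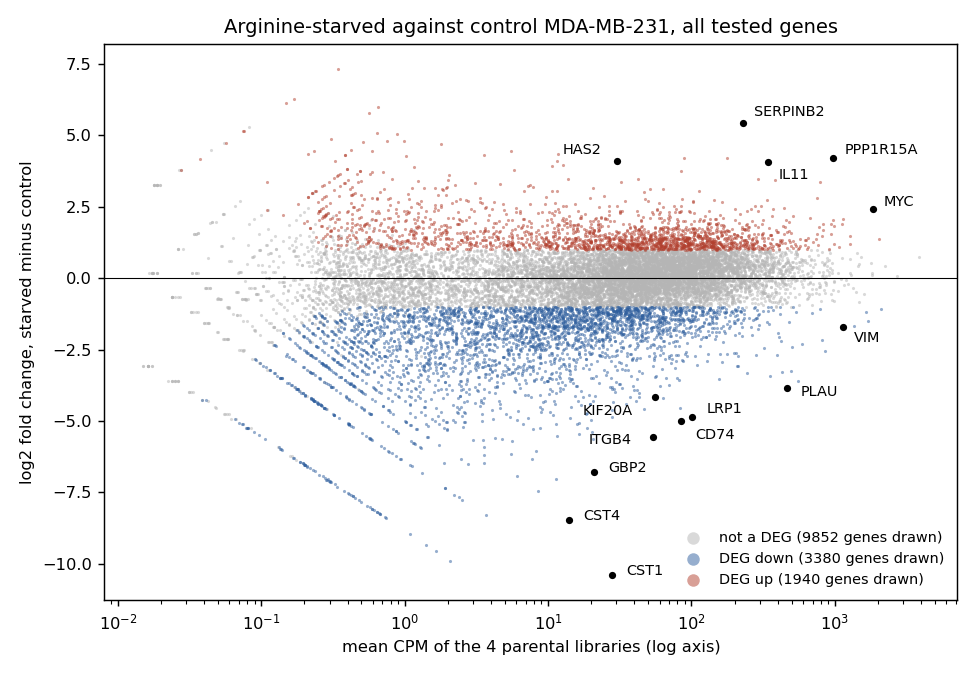
Log2 fold change of starved against control MDA-MB-231 cells (y axis) by mean CPM of the 4 parental libraries (x axis, log scale), with 1 point per gene for 15172 tested genes (90 genes with almost no parental counts are not drawn). Up-regulated DEGs are red and down-regulated DEGs are blue, named genes are black, and the falls reach further from 0 than the rises, down to CST1, although fitted values of genes with few counts in a group (slanting lines at the left) depend on the prior count.

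The split between directions depended on the scaling between libraries. With upper quartile scaling 1572 genes were up-regulated and 3765 down-regulated, and with total counts 1448 and 3917. The median log2 fold change of all tested genes, -0.07 here, was -0.19 and -0.23 under these scalings. Directions are therefore given relative to the bulk of the genes. Of 39 functional gene lists, 10 had a median near 0 whose sign changed under at least 1 alternative. These were arginine and polyamine metabolism, ribosomal proteins, histone acetylation, autophagy, the proteasome, NRF2 targets, metallothioneins and zinc transporters, the BCL2 family, TGF-beta targets and markers of epithelial-mesenchymal transition, and no direction is given for them as groups.

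Among abundant DEGs without overlap between the groups, the 20 largest rises were 8.74-fold or more, and SERPINB2, an inhibitor of plasminogen activators, led them. SERPINB2 was at 11.1 and 9.76 CPM in control cells and at 443 and 450.4 CPM in starved cells, a 42.8-fold rise (log2 5.42, standard error 0.17, adjusted p = 4.68e-06, edgeR). Secreted and matrix products stood next to it. MMP3, the protease stromelysin, went from 18.3 and 17.96 to 329.9 and 345 CPM (18.6-fold), and IL11, a cytokine of the IL-6 family, from 36.6 and 40.5 to 654 and 629 CPM (16.7-fold). HAS2, which makes hyaluronan, went from 3.57 and 3.02 to 56.4 and 57.9 CPM (17.3-fold). The set also held stress and growth arrest genes. PPP1R15A, the subunit that directs a phosphatase to eIF2α, had 99.4 and 101 CPM in control and 1873 and 1847 CPM in starved cells (18.5-fold). GADD45A, a growth arrest gene, had 63.9 and 67.5 CPM in control and 709 and 704 CPM in starved cells (10.8-fold). KLF10 (11.2-fold), the circadian repressor PER2 (11.2-fold), the bZIP factor HLF (11.1-fold), DHRS2 (20.5-fold), ZNF583 (15.1-fold), AATBC (17.2-fold) and PRELID3A (8.88-fold) were among the same 20. The 5 most abundant up-regulated DEGs on the CPM scale were MYC (5.31-fold), PHLDA1 (2.60-fold), TFRC (2.82-fold), FTL (4.16-fold) and TXNIP (2.28-fold).

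The falls were deeper. CST1, a secreted cystatin that inhibits cysteine proteases, had 55.0 and 57.3 CPM in control cells and 0.0792 and 0 in starved cells, which is 498-fold lower or more when the starved level is set at 3 counts per library. CST4, its close paralog, was at least 247-fold lower by this floor, and reads of the pair may have been divided between them by the counting. MPZL2, an adhesion protein, went from 23.0 and 22.3 to 0.238 and 0.106 CPM (131-fold lower, adjusted p = 4.17e-04, edgeR). Among the other genes of the 20 largest falls, LRP1, an endocytic receptor, went from 206 and 185 to 7.05 and 6.38 CPM (29.1-fold lower), and TENM4, a teneurin, from 41.3 and 39.4 to 0.911 and 0.709 CPM (49.8-fold lower). ANGPTL2 (43.7-fold lower), the complement protease C1R (42.0-fold), the semaphorin SEMA3B (29.9-fold) and the caveolar protein SDPR (33.5-fold) fell in both starved libraries too, as did LRRC45, MPP4, B4GAT1, SH3TC2, RASSF4 and SNPH, by 27.1-fold to 37.9-fold. The 5 most abundant down-regulated DEGs on the CPM scale were the motor subunit DYNC1H1 (2.82-fold lower), PKM (2.09-fold), ACTB (2.25-fold), TUBB (3.22-fold) and VIM (3.28-fold).

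**Figure D2:**
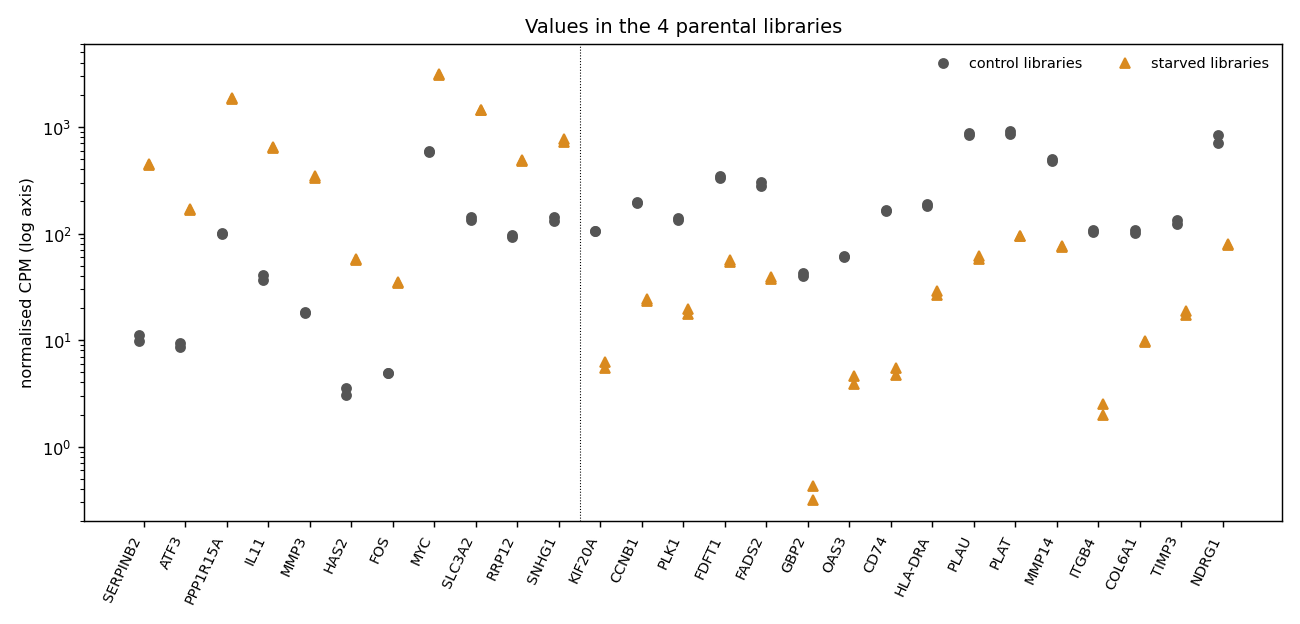
Normalised CPM (y axis, log scale) of 27 genes in each control library (grey circles) and each starved library (orange triangles) of the parental cells. The first 11 genes rose and the other 16 fell, and replicates lie close together beside the distance between the groups.

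Of 26 tested amino acid transporters, 11 were up-regulated DEGs (42.3%) and 3 were down-regulated (11.5%), with a median log2 fold change of 0.89. SLC3A2, the heavy chain shared by several exchangers, had 135 and 144 CPM in control and 1426 and 1448 CPM in starved cells, a 10.3-fold rise (adjusted p = 2.81e-05, edgeR). SLC7A11, which imports cystine with that heavy chain, rose 5.80-fold, and the glutamine carrier SLC1A5 rose 4.53-fold. SLC7A1, the main cationic transporter that brings arginine into the cell, had 285 and 259 CPM in control and 711 and 674 CPM in starved cells (2.54-fold). The transporters did not move as a block, since SLC38A4 fell 11.3-fold and the aspartate and glutamate carrier SLC1A3 fell 2.13-fold.

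Of 20 cytosolic aminoacyl-tRNA synthetases, 12 were significantly higher and 4 lower at any fold, but only 2 were up-regulated DEGs (10.0%) and 1 a down-regulated one (5.0%). SARS (3.12-fold) and YARS (2.89-fold), which charge serine and tyrosine tRNA, rose most. QARS, the glutaminyl enzyme, had 155 and 159 CPM in control and 23.5 and 26.1 CPM in starved cells, a 6.33-fold fall (adjusted p = 6.64e-06, edgeR). RARS, the arginyl enzyme, was at 117 and 123 CPM in control and 164 and 168 CPM in starved cells, with an adjusted p of 0.013 that lay between 0.053 and 0.0816 when any 1 parental library was left out. Of 18 enzymes of serine synthesis and one-carbon metabolism, 4 were up-regulated (22.2%) and 3 down-regulated (16.7%). CTH, which makes cysteine from cystathionine, had 13.2 and 12.6 CPM in control and 112 and 115 CPM in starved cells (8.80-fold, adjusted p = 7.46e-06, edgeR). PSAT1 (3.03-fold) and MTHFD2 (2.98-fold) rose, while PHGDH, the first enzyme of serine synthesis, was lower at 48.0 and 49.5 CPM against 78.4 and 81.3 CPM in control cells, and SHMT1 fell 2.66-fold.

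Arginine and polyamine metabolism held 5 DEGs in each direction among 26 tested genes. ODC1 (3.77-fold) and AMD1 (3.65-fold), which together feed polyamine synthesis, rose, and PYCR1, which makes proline, rose 2.71-fold. GAMT, which makes creatine, fell 2.55-fold, CPS1 of the urea cycle fell 2.79-fold, and PYCRL fell 2.57-fold.

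The promoter of ATF3, a transcription factor of the same stress response, is shown because it holds the ATF4 composite element. ATF3 was at 8.70 and 9.34 CPM in control cells and 166 and 169.7 CPM in starved cells, an 18.6-fold rise (adjusted p = 9e-06, edgeR). Bases were taken from RefSeq promoters on GRCh38.p14, which span 250 bases before to 50 after each gene start and were matched to 11842 of the 15262 tested genes. The stretch lies at chr1:212565207-212565232 on the plus strand, 200 to 175 bases before the start, and the capitals mark TGATGNAA.
ATF3: aggtcaggaTGATGGAAggctgtcat
Searched on both strands, this element was found in 5 of 12 synthetase promoters (41.7%), 4 of 22 transporter promoters (18.2%) and 1.80% of the promoters of all tested genes. Over all DEGs its shares were near each other, 2.14% of the promoters of up-regulated and 2.01% of those of down-regulated DEGs. It was in 5.62% of the promoters of up-regulated DEGs with a log2 fold change above 2 (15 of 267) and in 2.57% of those of down-regulated DEGs below -2. SLC7A1 and SLC3A2, which rose, hold it 8 and 38 bases after their starts, and SLC1A3, which fell, holds it 220 bases before its start. The synthetase DEGs SARS, YARS and QARS were not among the 5 synthetases with a match. Only 12 of the 20 synthetases had a promoter, and these DEGs may not be among them, so nothing is read from the lack of a match. A match in letters is a description of the window and not of binding.

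Genes of ribosome production rose, while the ribosomal proteins themselves moved little. Of 47 genes of ribosome biogenesis and RNA polymerase I, 21 were up-regulated DEGs (44.7%) and 1 was down-regulated, with a median log2 fold change of 0.93, and 36 were significantly higher at any fold. RRP12, a nucleolar processing factor, went from 92.6 and 96.6 to 492 and 479 CPM (5.13-fold, adjusted p = 3.71e-04, edgeR). RRN3, the initiation factor of RNA polymerase I, rose 4.13-fold, and the helicase DDX21 rose 3.52-fold. The exception was NHP2 of the box H/ACA particles, which fell 2.09-fold. Of 20 snoRNA host genes, long RNAs whose introns carry small nucleolar RNAs, 8 were up-regulated DEGs (40%) and 1 was down-regulated. SNHG1 went from 131 and 143 to 725 and 764 CPM (5.44-fold), SNHG15 rose 6.33-fold, SNHG17 4.24-fold and GAS5 3.82-fold. Of 78 cytosolic ribosomal protein genes, 5 were up-regulated DEGs (6.41%) and none was down-regulated, and at any fold 28 were significantly higher and 15 lower. RPL27 rose 2.39-fold, RPL9 2.28-fold and RPL10A 2.17-fold, and genes of this family have many near-identical copies whose reads may be shared. The E-box CACGTG, the core of MYC sites, was searched on both strands. It was in 28.9% of the promoters of the ribosome biogenesis list and in 9.84% of those of all tested genes. Of the promoters of up-regulated DEGs 13.7% held it, and of those of down-regulated DEGs 7.89%. Beyond a log2 fold change of 2 these shares were 10.9% and 6.64%. The E-box was also in 33.3% of the promoters of the lysosomal list, where more members fell than rose. In the D cyclin and CDK list, where more rose than fell, the share was 37.5%. MYC itself had 588 and 590 CPM in control cells and 3102 and 3154 CPM in starved cells.

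Transcription factors of the immediate early class showed the highest share of rises of any functional list. These genes are switched on within minutes of growth factor or stress signals and include the FOS and JUN proteins of AP-1. Of 39 tested members, 23 were up-regulated DEGs (59.0%) and 1 was down-regulated, with a median log2 fold change of 1.34. FOS was at 4.95 and 4.90 CPM in control and 35.0 and 34.1 CPM in starved cells (7.01-fold, adjusted p = 1.21e-05, edgeR). FOSB went from 1.26 and 1.84 to 22.2 and 25.5 CPM (15.4-fold), EGR1 from 11.3 and 11.9 to 155 and 161 CPM (13.6-fold), FOSL1 from 177 and 199 to 541 and 529.8 CPM (2.85-fold) and JUN from 411 and 439 to 883 and 826 CPM (2.01-fold). All of these were higher in both starved libraries than in either control library, at the single time measured.

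SERPINB2 and IL11, a pair of the largest rises, are shown because their promoters hold an AP-1 site. The first stretch lies at chr18:63887593-63887619 on the plus strand, 112 to 86 bases before the start, and the second at chr19:55370543-55370569 on the minus strand, 106 to 80 bases before it, and the capitals mark TGANTCA.
SERPINB2: agtaaaatgtTGAATCActcaaaggac
IL11: gcagggagggTGAGTCAggatgtgtca
The AP-1 site was found, on both strands, in 4.89% of the promoters of all tested genes, 7.12% of those of up-regulated DEGs with a log2 fold change above 2 and 6.73% of those of down-regulated DEGs below -2.

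Genes that restrain MAPK signalling moved in both directions. Of 33 MAPK feedback genes and EGF receptor ligands, 7 were up-regulated DEGs (21.2%) and 7 down-regulated (21.2%). The phosphatases that act on MAP kinases were divided. DUSP1 went from 178 and 205 to 1349 and 1302 CPM (6.93-fold) and DUSP8 rose 4.49-fold, whereas DUSP4 went from 974 and 979 to 195 and 198 CPM (4.97-fold lower, adjusted p = 4.73e-06, edgeR) and DUSP6 fell 2.23-fold. PHLDA2 rose 3.69-fold, the factor ETV1 fell 11.0-fold and the receptor ERBB3 fell 12.4-fold. Of 37 TGF-beta targets and ID proteins, 9 were up-regulated DEGs (24.3%) and 6 down-regulated (16.2%). ID3, an inhibitor of bHLH factors, went from 5.82 and 5.63 to 60.5 and 57.5 CPM (10.3-fold), the repressor SKIL rose 3.76-fold and INHBA 2.80-fold, while TGFBI fell 15.5-fold and the co-receptor TGFBR3 fell 7.0-fold. Of 33 YAP and TAZ targets, 7 were up-regulated DEGs (21.2%) and 1, MYOF, was down-regulated (2.0-fold). ANKRD1 went from 468 and 505 to 1366 and 1445 CPM (2.89-fold) and the clotting initiator F3 rose 2.97-fold, whereas CTGF was lower, at 656 and 631 CPM against 813 and 874 CPM in control cells.

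**Figure D3:**
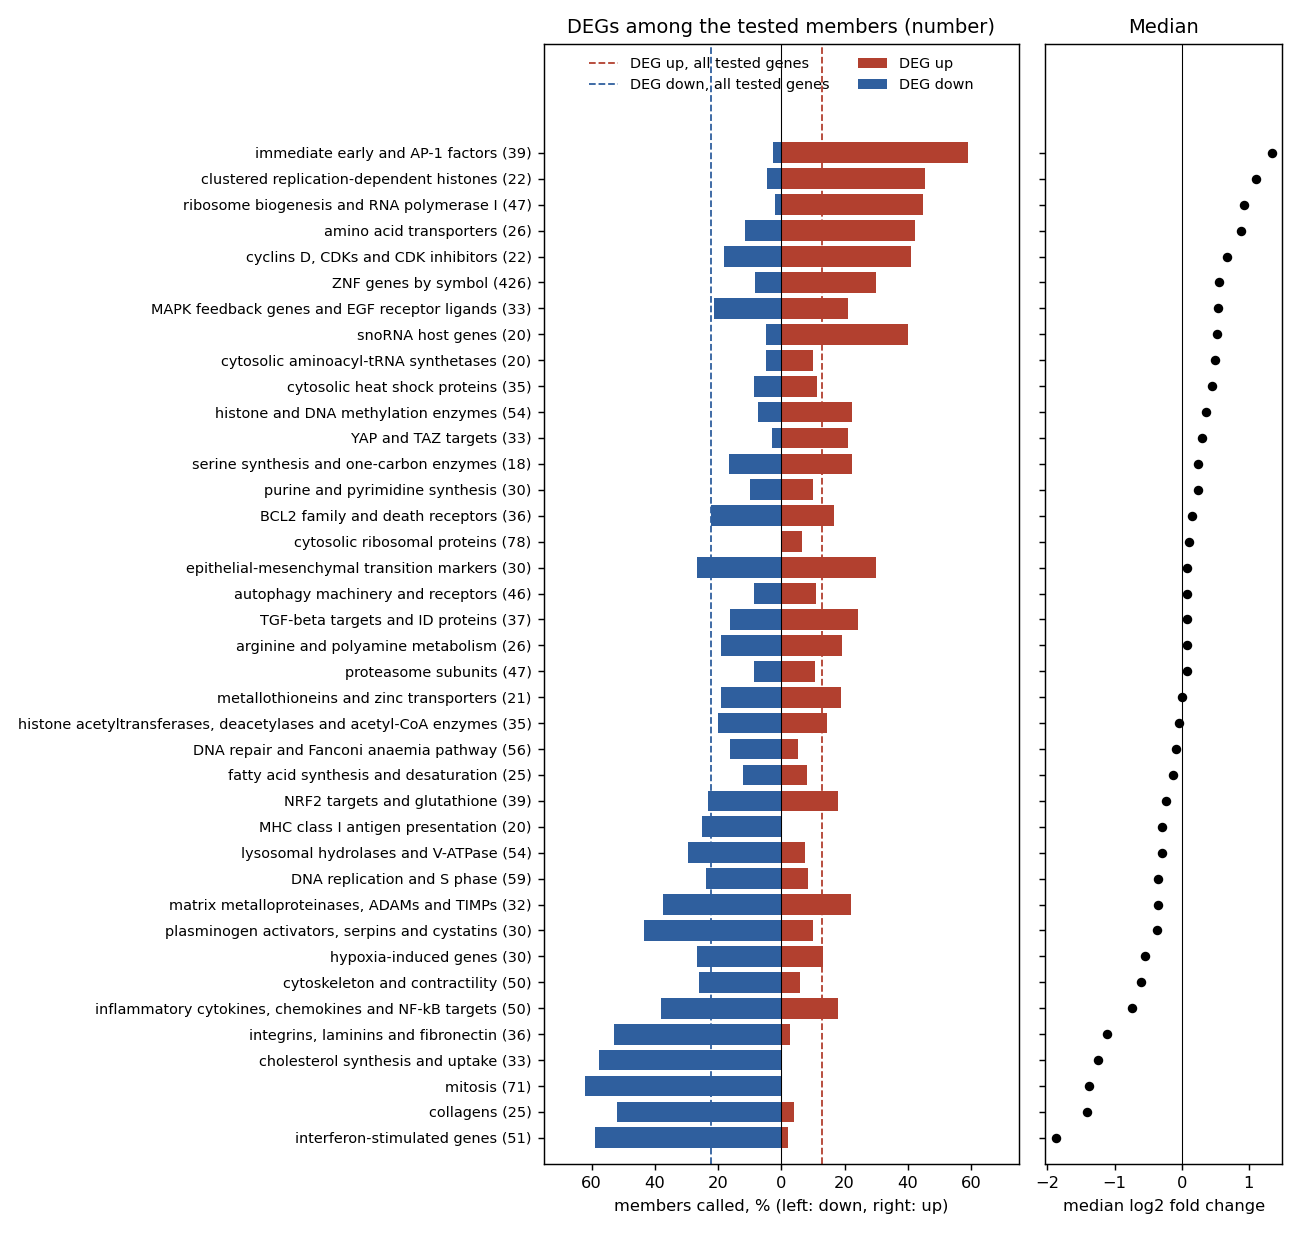
Share of the tested members of 39 functional gene lists that were up-regulated DEGs (red, to the right) or down-regulated DEGs (blue, to the left), in percent, with the number tested in brackets, and the median log2 fold change of each list (right). Dashed lines give the shares over all tested genes, 12.7% up and 22.1% down, and the lists are in order of their medians, from immediate early factors at 1.34 to interferon-stimulated genes at -1.87.

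Mitotic genes fell together. Of 71 tested genes that act from mitotic entry to cytokinesis, 44 were down-regulated DEGs (62.0%) and none was up-regulated, with a median log2 fold change of -1.38, and 60 were significantly lower at any fold. KIF20A, a kinesin of the central spindle, had 107 and 105 CPM in control and 5.47 and 6.24 CPM in starved cells, an 18-fold fall (adjusted p = 7.9e-05, edgeR). CCNB1, the cyclin of mitotic entry, had 193 and 199 CPM in control and 24.4 and 23.1 CPM in starved cells (8.24-fold lower). PLK1, a mitotic kinase, had 133 and 140.3 CPM in control and 19.6 and 17.4 CPM in starved cells (7.39-fold lower), and SPC25 of the kinetochore fell 16.8-fold.

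The promoters of 3 of these genes are shown for the elements that mitotic genes are known to share, the cell cycle homology region (CHR, TTTGAA) and the NF-Y site (CCAAT), which are in capitals. PLK1 holds both. The stretches are chr16:23678809-23678869 for PLK1, chr5:69167055-69167105 for CCNB1 and chr5:138179012-138179052 for KIF20A, all on the plus strand.
PLK1: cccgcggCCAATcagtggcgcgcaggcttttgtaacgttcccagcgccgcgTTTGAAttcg
CCNB1: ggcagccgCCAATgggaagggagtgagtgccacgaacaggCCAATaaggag
KIF20A: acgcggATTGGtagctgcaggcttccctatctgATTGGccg
On both strands, the CHR was in 41 of 60 mitotic promoters (68.3%) and in 10.0% of the promoters of all tested genes. The NF-Y site was in 70.0% of the mitotic promoters and 36.3% of all. Among all down-regulated DEGs, the CHR was in 11.5% of promoters and the NF-Y site in 37.3%.

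DNA replication genes moved less and in both directions. Of 59 tested genes, 14 were down-regulated DEGs (23.7%) and 5 up-regulated (8.47%), with a median of -0.36. The replicative helicase subunit MCM2 had 244 and 251 CPM in control and 283 and 263 CPM in starved cells, and the clamp PCNA 117 and 120 against 101 and 111 CPM, with adjusted p-values of 0.64 and 0.605 (edgeR). LIG1 (6.54-fold), TIMELESS (5.19-fold) and the polymerase subunit POLD1 (4.05-fold) fell. CCNE2, the cyclin of the start of S phase, rose 3.25-fold, as did ORC6 (2.94-fold) and GINS3 (2.27-fold). In repair and the Fanconi anaemia pathway, 9 of 56 genes were down-regulated DEGs (16.1%) and 3 up-regulated (5.36%). FANCD2 fell 5.37-fold, FANCF 3.91-fold and RAD54B 3.87-fold, while the helicase WRN rose 3.33-fold, the ligase LIG4 3.15-fold and RAD50 2.16-fold. BRCA1 (34.0 and 29.1 against 31.48 and 30.95 CPM) overlapped between the groups.

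Cell cycle regulators outside mitosis moved in both directions. Of 22 tested genes on a list of D cyclins, CDKs, CDK inhibitors and other regulators, 9 were up-regulated DEGs (40.9%) and 4 down-regulated (18.2%). Of its DEGs, GADD45A, GADD45B, RBL2 and CCNG2 are not D cyclins, CDKs or CDK inhibitors. CDKN1A, the inhibitor p21, went from 102 and 108 to 419 and 425 CPM (4.01-fold, adjusted p = 8.19e-06, edgeR) and GADD45B rose 5.13-fold. The pocket protein RBL2 fell 9.49-fold, and the inhibitor CDKN2C fell 7.01-fold. CCNG2 had 41.3 and 38.2 CPM in control and 7.64 and 7.98 CPM in starved cells (adjusted p = 0.014, edgeR), and its adjusted p was 0.058 without control replicate 1, 0.076 without starved replicate 1 and 0.0732 without starved replicate 2.

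Of 61 clustered histone genes in the table, 22 were tested, and 10 of these were up-regulated DEGs (45.5%) and 1 was down-regulated, with 6 up-regulated when starved replicate 2 was left out. Replication-dependent histone mRNAs normally lack a poly(A) tail, and the method of RNA selection is not given in the sources used here. Among the up-regulated members with a mean of at least 10 CPM were the linker histone HIST1H1C, at 17.6 and 19.7 CPM in control and 89.6 and 89.5 CPM in starved cells (4.8-fold), and HIST1H2BD (2.94-fold). Of 30 genes of purine and pyrimidine synthesis, 3 rose and 3 fell as DEGs. PPAT, the first enzyme of purine synthesis, rose 2.98-fold, UPP1 2.92-fold and NME1 2.23-fold, whereas the cytidine deaminase CDA fell 12.9-fold and CTPS2 4.41-fold. CAD, which starts pyrimidine synthesis, had 284 and 274 CPM in control and 281 and 283 CPM in starved cells.

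Sterol synthesis fell. Of 33 genes of cholesterol synthesis and uptake, 19 were down-regulated DEGs (57.6%) and none was up-regulated, and 27 were significantly lower and 1 higher at any fold. The median log2 fold change was -1.25, and -1.05 when the 1 member with at most 3 counts in a whole group was set at its bound. INSIG1, a sterol-regulated retention protein, went from 62.8 and 66.2 to 10.1 and 10.4 CPM (6.30-fold lower, adjusted p = 0.00114, edgeR), and FDFT1, the squalene synthase, from 331 and 349.7 to 54.2 and 55.8 CPM (6.19-fold lower). Genes of fatty acid synthesis did not follow them as a group. Of 25 tested, 3 were down-regulated DEGs (12%) and 2 up-regulated (8.0%). FASN was at 1008 and 1037 CPM in control and 952 and 929 CPM in starved cells (adjusted p = 0.326, edgeR), while the desaturase FADS2 fell 7.58-fold, and the lipid droplet protein PLIN2 and the elongase ELOVL7 rose 3.31-fold and 3.16-fold. The sterol element TCACNCCAC was in 1 of 25 promoters of the cholesterol list, on both strands, and in 1.15% of all.

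Interferon-stimulated genes had the lowest median of all functional lists. Of 51 tested members, 30 were down-regulated DEGs (58.8%) and 1, the factor IRF1, was up-regulated (2.80-fold), with 19 down-regulated by limma-voom. The median log2 fold change was -1.87, and -1.62 when the 6 members with at most 3 counts in a whole group were set at their bounds. GBP2, an interferon-induced GTPase, had 40.1 and 43.0 CPM in control and 0.317 and 0.425 CPM in starved cells, a 110-fold fall (adjusted p = 3.1e-05, edgeR). OAS3, which makes oligoadenylates on sensing double-stranded RNA, went from 60.6 and 61.7 to 4.63 and 3.86 CPM (14.4-fold lower), and IFI44 fell 10.0-fold. IFIT1, a sensor of foreign RNA caps, went from 11.0 and 12.5 to 1.15 and 0.674 CPM, with an adjusted p of 0.0201, which lay between 0.0538 and 0.101 when any 1 parental library was left out. ISG15, a ubiquitin-like protein, went the other way in both starved libraries, from 32.0 and 31.6 to 55.6 and 56.6 CPM. It did not pass the test in the main fit over all 8 libraries (adjusted p = 0.191, edgeR). In a fit to the 4 parental libraries alone it passed, with a log2 fold change of 0.851 (adjusted p = 5.93e-09, edgeR).

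The promoters of IFIT1, OAS3 and ISG15 are shown because all hold the interferon element GAAANNGAA, shown in capitals on either strand. They lie at chr10:89392501-89392533, chr12:112938324-112938349 and chr1:1013377-1013409, on the plus strand, and overlapping copies in ISG15 run together.
IFIT1: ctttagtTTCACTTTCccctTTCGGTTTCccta
OAS3: aagaaacGAAACTGAAagcagggaat
ISG15: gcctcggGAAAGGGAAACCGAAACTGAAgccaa
The element was in 28 of 40 promoters of the interferon list (70.0%), in 6.38% of those of all tested genes and in 6.85% of those of all down-regulated DEGs.

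Genes of antigen presentation were taken by class. Of 20 genes of the MHC class I pathway, 5 were down-regulated DEGs (25%) and none was up-regulated. The light chain B2M had 511 and 532 CPM in control and 496 and 520.0 CPM in starved cells, and did not pass the test (adjusted p = 0.883, edgeR). The immunoproteasome subunit PSMB9 fell 21.1-fold, the class I activator NLRC5 3.23-fold and the peptide loading protein TAPBP 2.25-fold. Class II genes were looked at because CD74 and HLA-DPB1 were among the 20 largest falls, so they were chosen after their values were seen, and the classes were not tested against each other. Of 14 tested HLA-D genes, 13 were down-regulated DEGs and 1, HLA-DOB, was up-regulated. CD74, the invariant chain, had 165 and 162 CPM in control and 4.67 and 5.53 CPM in starved cells (32.0-fold lower, adjusted p = 1.12e-05, edgeR). HLA-DRA had 179.5 and 189 CPM in control and 29.03 and 26.4 CPM in starved cells, HLA-DPA1 50.5 and 50.8 against 6.97 and 8.26 CPM, and HLA-DPB1 21.5 and 23.0 against 0.594 and 0.674 CPM. The peptide exchange subunits HLA-DMA and HLA-DMB had log2 fold changes of -3.50 and -4.68. CIITA, the activator that class II genes require, went from 18.6 and 16.3 to 1.27 and 1.52 CPM (log2 fold change -3.64), and RFX5, which binds their promoters, from 101 and 101 to 52.4 and 54.2 CPM. HLA genes are similar and polymorphic, so that reads may have been shared between them.

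Cytokines and NF-kB targets moved in both directions. Of 50 tested, 19 were down-regulated DEGs (38.0%) and 9 up-regulated (18%), with 12 down-regulated when at least 10 counts in every library were required. The chemokine CXCL1 had 54.2 and 64.2 CPM in control and 4.51 and 4.54 CPM in starved cells (13.1-fold lower), and the growth factor CSF3 fell 14.0-fold. CXCL8 had 439 and 456 CPM in control and 251 and 261 CPM in starved cells, and IL6 had 43.4 and 50.1 against 25.7 and 25.2 CPM. The inhibitor NFKBIB rose 5.76-fold. IL24 rose 5.32-fold (adjusted p = 0.00684, edgeR), with adjusted p-values of 0.0568 and 0.0539 without control replicates 1 and 2.

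The extracellular matrix and its receptors fell. Of 25 tested collagen genes, 13 were down-regulated DEGs (52.0%) and 1 was up-regulated, with a median log2 fold change of -1.42. COL6A1 had 107 and 101 CPM in control and 9.504 and 9.78 CPM in starved cells (10.8-fold lower, adjusted p = 4.87e-06, edgeR), COL13A1 fell 6.17-fold, COL6A2 4.69-fold and COL4A1 of basement membranes 3.2-fold. Of 36 integrin, laminin and fibronectin genes, 19 were down-regulated DEGs (52.8%) and 1 was up-regulated, with 11 down-regulated when at least 10 counts in every library were required. ITGB4, the hemidesmosome integrin, had 109 and 104 CPM in control and 2.53 and 1.99 CPM in starved cells (47.1-fold lower), and ITGA10 fell 21.2-fold. ITGA2, a collagen receptor, had 745 and 629.5 CPM in control and 109 and 107 CPM in starved cells (6.39-fold lower). ITGB1, the common partner of many integrins, did not follow them, at 941 and 853 CPM in control and 1007 and 1015 CPM in starved cells (adjusted p = 0.472, edgeR). FN1, fibronectin, had 257 and 237 CPM in control and 75.3 and 70.7 CPM in starved cells, with an adjusted p of 0.026 that lay between 0.0775 and 0.114 when any 1 parental library was left out.

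Extracellular proteases moved in both directions. Of 32 metalloproteinases, ADAMs and TIMPs, 12 were down-regulated DEGs (37.5%) and 7 up-regulated (21.9%). MMP1, an interstitial collagenase, was already at 2904 and 2877 CPM in control cells and reached 4734 and 4892 CPM in starved cells (1.66-fold). ADAMTS1 rose 4.58-fold and ADAMTS9 2.58-fold. The membrane protease MMP14 had 498 and 482 CPM in control and 76.0 and 74.1 CPM in starved cells (6.53-fold lower), the gelatinase MMP9 fell 46.0-fold, MMP15 9.75-fold and the inhibitor TIMP3 7.14-fold. Of 30 plasminogen activators, serpins and cystatins, 13 were down-regulated DEGs (43.3%) and 3 up-regulated (10.0%), with 5 down-regulated when at least 10 counts in every library were required. Both activators of plasminogen fell while their inhibitor SERPINB2 rose. PLAU, urokinase, went from 847 and 883 to 61.3 and 57.8 CPM (14.5-fold lower, adjusted p = 1.19e-05, edgeR), and PLAT, the tissue-type activator, from 865 and 921 to 94.3 and 95.2 CPM (9.43-fold lower). The collagen chaperone SERPINH1 rose 2.39-fold.

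Of 50 genes of the cytoskeleton and contractility, 13 were down-regulated DEGs (26.0%) and 3 up-regulated (6.0%), and 30 were significantly lower at any fold. ACTN4 had 661 and 646 CPM in control and 163 and 154 CPM in starved cells (4.12-fold lower), MYH10 fell 5.09-fold and TPM2 4.61-fold, whereas the filamin FLNC rose 2.93-fold. Markers of epithelial-mesenchymal transition held 9 up-regulated (30.0%) and 8 down-regulated DEGs (26.7%) among 30. The repressors SNAI2 (4.32-fold), SNAI1 (3.79-fold) and ZEB2 (2.51-fold) rose, VIM fell, and so did the epithelial genes KRT8 (2.88-fold) and PKP3 (3.47-fold). CDH1, E-cadherin, had at most 0.0709 CPM in any parental library. Of the 12 basal markers, 7 were down-regulated DEGs (58.3%) and 1, FOSL1, was up-regulated. CD44 had 810 and 809 CPM in control and 517 and 527 CPM in starved cells. Of 13 tested luminal markers, 6 were down-regulated DEGs (46.2%) and 1, XBP1, was up-regulated. Of 5 tested leukocyte markers 1 was a down-regulated DEG, and of 9 tested fibroblast and endothelial markers 5 were, all at low levels. PTPRC had at most 0.452 CPM and PECAM1 at most 1.08 CPM.

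Stress pathways split within themselves. Of 39 NRF2 targets and glutathione genes, 9 were down-regulated DEGs (23.1%) and 7 up-regulated (17.9%), and the median was -0.23, or 0.07 with 3 members at their bounds. HMOX1, which degrades haem, went from 9.62 and 11.5 to 91.2 and 93.3 CPM (8.74-fold) and OSGIN1 rose 5.07-fold, whereas catalase, CAT, went from 81.1 and 81.4 to 4.87 and 5.14 CPM (16.2-fold lower, adjusted p = 9e-06, edgeR), GPX3 fell 6.28-fold and NQO1 4.57-fold. Of 21 metallothioneins and zinc transporters, 4 rose and 4 fell as DEGs. MT2A had 126 and 135 CPM in control and 28.3 and 28.6 CPM in starved cells and MT1X fell 4.54-fold, while the zinc exporter SLC30A1 rose 4.34-fold, SLC39A14 2.51-fold and the metal sensor MTF1 2.37-fold. SLC39A10 fell 2.45-fold. Metallothionein genes are close copies of each other.

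Of 30 hypoxia-induced genes, 8 were down-regulated DEGs (26.7%) and 4 up-regulated (13.3%). NDRG1 had 846 and 708 CPM in control and 79.9 and 78.1 CPM in starved cells (9.84-fold lower), PFKFB4 fell 5.15-fold and CA12 4.65-fold, and CA9 was at least 19.7-fold lower by the same floor as CST1. VEGFA, the angiogenic factor, was at 154 and 143 CPM in control and 269 and 255 CPM in starved cells, ADM rose 2.34-fold and PDK1 2.25-fold. Among 36 BCL2 family members and death receptors, 8 were down-regulated (22.2%) and 6 up-regulated DEGs (16.7%). The pro-death PMAIP1 went from 27.5 and 27.4 to 133 and 139 CPM (4.94-fold), and the receptor TNFRSF10A rose 4.33-fold. The pro-survival BCL2A1 fell 12.9-fold and BIRC3 4.19-fold, and CASP9 fell 4.02-fold. BBC3 overlapped between the groups, at 5.49 and 5.25 against 5.47 and 4.96 CPM. Of 35 cytosolic heat shock proteins, 4 rose (11.4%) and 3 fell (8.57%) as DEGs, and 21 were significantly higher at any fold. HSPB8 rose 3.68-fold, CHORDC1 2.59-fold and HSPA4 2.19-fold, and DNAJB5 fell 3.30-fold. HSPA8, the constitutive chaperone, had 1222 and 1272 CPM in control and 1330 and 1363 CPM in starved cells (adjusted p = 0.616, edgeR).

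Genes of the degradation systems moved in both directions. Of 54 lysosomal hydrolases and V-ATPase subunits, 16 were down-regulated DEGs (29.6%) and 4 up-regulated (7.41%). The hydrolases FUCA1 (4.95-fold), CTSA (4.20-fold) and LIPA (4.01-fold) fell, and CTSD was lower at 161 and 159 CPM against 310 and 326 CPM in control cells. CD63 (2.37-fold), ATP6V0B (2.19-fold) and NEU1 (2.14-fold) rose. Of 46 autophagy genes, 5 rose (10.9%) and 4 fell (8.70%) as DEGs. The receptor SQSTM1 went from 187 and 206 to 632 and 588 CPM (3.10-fold), and TP53INP2 (2.33-fold), ATG101 (2.26-fold) and MAP1LC3B (2.17-fold) rose, while WIPI2 (2.73-fold), the initiating kinase ULK1 (2.19-fold) and BNIP3L (2.04-fold) fell. Of 47 proteasome genes, 5 rose (10.6%) and 4 fell (8.51%) as DEGs. The activator PSME4 (2.66-fold), PSMD12 (2.46-fold) and PSMD14 (2.46-fold) rose, and PSMD1 (2.72-fold) and the interferon-inducible activator subunit PSME1 (2.44-fold) fell.

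Chromatin enzymes also divided. Of 35 genes of histone acetylation and acetyl-CoA supply, 7 were down-regulated (20%) and 5 up-regulated DEGs (14.3%). The deacetylase SIRT1 went from 47.2 and 43.3 to 199.7 and 206 CPM (4.49-fold), and EP300 and HDAC9 each rose 2.89-fold. ACSS2, which makes acetyl-CoA from acetate, went from 88.1 and 104 to 14.1 and 15.1 CPM (6.59-fold lower), ACLY was lower at 234 and 229 CPM against 385 and 369 CPM, and HDAC5 and HDAC6 fell 4.01-fold and 3.85-fold. Of 54 histone and DNA methylation enzymes, 12 were up-regulated (22.2%) and 4 down-regulated DEGs (7.41%). TET3 (5.37-fold), KDM6B (4.64-fold) and PRMT3 (3.34-fold) rose, and EHMT2, a histone H3 methyltransferase, went from 159 and 163 to 24.4 and 24.8 CPM (6.56-fold lower, adjusted p = 4.68e-06, edgeR), with PRMT2 (2.67-fold) and DNMT3B (2.45-fold) also lower.

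Zinc finger genes taken by their symbol, many of them repressors of transposable elements, were 426 in number. Of these 128 were up-regulated DEGs (30.0%) and 36 down-regulated (8.45%), with a median log2 fold change of 0.56. ZNF14 went from 5.01 and 3.82 to 25.4 and 28.0 CPM (6.03-fold) and ZNF124 rose 5.76-fold. ZNF618 fell 7.13-fold, ZNF32 3.87-fold and ZNF76 3.75-fold. The family is large and similar in sequence.

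Base composition moved with the response, which was also set against level. Over 13570 protein-coding genes matched to an annotation, the median log2 fold change was 0.17 in the fifth of genes with the lowest GC content and -0.36 in the fifth with the highest, with 15.9% and 28.8% down-regulated DEGs. Spearman's rho across genes was -0.15, and -0.18 among genes of at least 10 CPM, and genes are not independent replicates. The median GC content was 43.3% for the zinc finger genes and 43.2% for the mitotic genes, which moved in opposite directions, against 48.4% for all matched genes, and 58.8% for collagens. By level, the median log2 fold change was 0.30 in the fifth of tested genes with the highest CPM and -0.59 in the fifth with the lowest. This level is the mean CPM of the 4 parental libraries, the starved ones included. A rise therefore shifts a gene to a higher level and a fall to a lower one. The order by level is partly built in by the response, and nothing is read from it. The part of composition and level in the results above was not tested.

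The parental response was set against that of the ρ0 cells to see where it differed, with the difference itself tested in the same fit. For 40.4% of the tested genes the responses differed. Of 2287 genes that were significant in both lines and differed between them, 1732 moved the same way, and in 1548 of these the change was larger in parental cells. Among the 20 largest parental rises 16 differed, and among the 20 largest falls 19, but these genes were chosen on the parental values that enter the difference, so an excess over 40.4% is partly built in and nothing is read from it. HAS2 had log2 fold changes of 4.11 in parental and 0.14 in ρ0 cells (adjusted p = 4.06e-04 for the difference, edgeR), and ITGB4 of -5.56 and -0.59 (adjusted p = 3.54e-04). The difference was within error for CTH (3.14 and 3.02, adjusted p = 0.635) and SLC7A1 (1.35 and 1.20, adjusted p = 0.643).

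By function, the median response of the mitotic list was near that of the ρ0 cells, -1.38 against -1.23, and 29.6% of its members differed. DNA replication genes had a median of -0.36 in parental and -1.43 in ρ0 cells, and 69.5% of them differed. Cholesterol genes had medians of -1.25 and -0.37, with 54.5% of members differing, and cytokines and NF-kB targets had medians of -0.73 and 0.56, with 66% differing. For collagens the medians were -1.42 and -0.17, and the 44% of members that differed lay near the 40.4% over all tested genes. Among genes named here, 19 moved significantly in opposite directions in the 2 lines with a significant difference. PLAU was not one of these, with 0.41 in ρ0 cells, but PLAT was, at -3.24 and 1.10, as were COL6A1 at -3.43 and 0.64, CXCL1 at -3.71 and 1.09, and ID3 at 3.37 and -3.33. The 2 ρ0 control libraries were unlike each other, with a biological coefficient of variation of 25.04%. Leaving out ρ0 control replicate 1 or 2 raised the number of genes that differed from 6167 to 10277 or 9269, and leaving out 1 parental library lowered it to between 3513 and 3952.

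**Figure D4:**
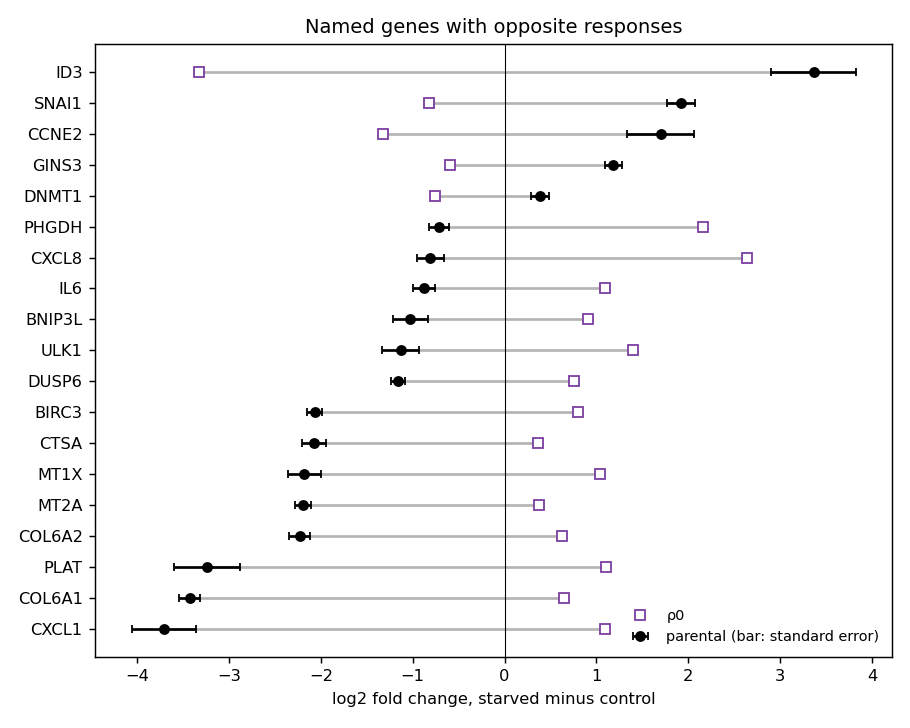
Log2 fold change of starved against control cells (x axis) for the 19 named genes that moved in opposite directions in parental (black circles, with the standard error) and ρ0 cells (open squares). Of these genes 5 rose in parental cells, led by ID3, and 14 fell, led by CXCL1.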

How the data were processed

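The authors deposited raw counts of reads for each gene symbol. The submitters' processing notes name Bowtie, Partek and hg19, with no roles, and the annotation is not given in the sources used here. Counts were scaled by TMM and tested in R 4.3.3 with edgeR 4.0.16 (filterByExpr, quasi-likelihood test, Benjamini-Hochberg adjustment) over all 8 libraries with 1 mean per group. The test was checked on simulated counts. CPM were computed from TMM-scaled library sizes and are not corrected for gene length. The members and the 43 gene lists were chosen with earlier results of these data known. Named genes are each list's index genes, its 3 largest rises and falls among DEGs of at least 10 CPM without overlap, and overall the 20 largest rises and falls and the 5 most abundant DEGs of each direction. Some named genes are not reported here. HLA-D genes, CIITA and RFX5 were added after their values were seen. Gene models came from GENCODE 29 (95.5% of tested genes matched). Same-numbered libraries did not deviate together (r = -0.045), so the main fit has no pairing. Alternatives were other scalings, filters and tests (DESeq2 1.42.0, limma 3.58.1), thresholds and leaving out libraries.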

Additional observations from a re-analysis of the deposited data

Results flagged for a closer look

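The responses of parental and ρ0 cells differed by the interaction test for 6167 genes and for 193 of the 277 tested genes that the naming rule gives. The rest of this list is the 19 genes of that rule that moved significantly in opposite directions in the 2 lines and whose difference passed the test, given as parental minus ρ0 on the log2 scale. Those higher in the parental response were ID3 (6.69), CCNE2 (3.02), SNAI1 (2.75), GINS3 (1.78) and DNMT1 (1.15). Those lower were CXCL1 (-4.8), PLAT (-4.34), COL6A1 (-4.07), CXCL8 (-3.44), MT1X (-3.22), PHGDH (-2.87), BIRC3 (-2.86), COL6A2 (-2.86), MT2A (-2.57), ULK1 (-2.54), CTSA (-2.44), IL6 (-1.97), BNIP3L (-1.93) and DUSP6 (-1.91). DNMT1 was higher in starved parental cells by 0.39 on the log2 scale, with adjusted p-values between 0.0532 and 0.0592 when any 1 parental library was left out.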

How the results depend on the processing

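Under the other scalings, filters and tests run, the numbers of DEGs over all genes stayed within 1.5 times those reported, except that testing against a fold change of 2 gave 1013 up-regulated genes (and 2300 down-regulated), and dropping the fold threshold gave 4637 and 5423. Counts within lists moved more. Requiring 10 counts in every library lowered the down-regulated DEGs from 19 to 11 for integrins and laminins, 19 to 12 for cytokines, 13 to 5 for plasminogen activators and serpins, 8 to 5 for epithelial-mesenchymal markers and 5 to 1 for fibroblast and endothelial markers, and the up-regulated ones from 7 to 3 for metalloproteinases and 10 to 6 for histones. With limma-voom 19 of the 30 interferon genes were called. With total counts the up-regulated DEGs went from 9 to 4 for epithelial-mesenchymal markers, and from 5 to 3 for arginine metabolism, 5 to 3 for autophagy and 5 to 2 for ribosomal proteins, and the down-regulated ones from 9 to 14 for DNA repair. Leaving out 1 parental library gave 1752 to 1864 up-regulated and 3102 to 3129 down-regulated genes. There the lone library is assumed to vary like those of the other groups. With the replicate number as a block, although the numbers were not shown to pair the libraries, 1931 genes were up-regulated and 3366 down-regulated, and 5731 differed from ρ0 cells. The number of differing genes was 3513 to 10277 over the fits without 1 library. Of 257 named genes that passed the test, 239 kept their sign and significance under every alternative that entered this count. The test against a fold change of 2 and the fits without a ρ0 library did not enter it. A gene that a filter removed was not judged under that filter. Some named genes that did not pass in the main fit passed in a fit to the parental libraries alone. Among them were ITGB1 (log2 fold change 0.206, adjusted p = 0.00114, edgeR), HSPA8 (0.144, 0.00392), MCM2 (0.174, 0.00432), PCNA (-0.127, 0.0412) and ISG15 (0.851, 5.93e-09). Their failure to pass in the main fit is therefore no sign that they were unchanged. Signs of the log2 fold change turned for 7 named genes that did not pass in the main fit. With upper quartile scaling and total counts these were CAD (-0.104 and -0.146), HSPA1A (-0.008 and -0.05) and HSPA8 (-0.009 and -0.051), and with total counts MCM2 (-0.02). CAD was also at -0.018 with at least 10 counts in every library. With the parental libraries alone BRCA1 was at 0.013. Over the fits without 1 parental library, the range was -0.129 to 0.1 for BRCA1, -0.012 to 0.041 for CAD, -0.114 to 0.028 for BBC3 and -3.066 to 3.228 for CDH1. The cause of these shifts was not tested.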
